A study of Rattus norvegicus with 15 samples.

Results

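The urea cycle and glutamine genes described here are 7 genes of ammonia disposal that were measured, out of 14506 genes in all, in primary rat hepatocytes exposed to flutamide, a nonsteroidal antiandrogen whose use is limited by liver injury. The rule named 8 genes (Cps1, Otc, Ass1, Asl, Arg1, Nags, Glul and Gls2) and took every probe set that carries one of these symbols in the platform annotation. Cps1, Otc, Ass1, Asl, Arg1, Nags and Gls2 had 1 probe set each. Glul, which encodes glutamine synthetase, was not analysed here.

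The liver turns toxic ammonia into urea in periportal hepatocytes. N-acetylglutamate synthase (Nags) makes the activator without which carbamoyl phosphate synthetase (Cps1) does not work. Ornithine transcarbamylase (Otc) makes citrulline inside the mitochondrion, and in the cytosol argininosuccinate synthetase (Ass1), argininosuccinate lyase (Asl) and arginase (Arg1) complete the cycle and release urea. The liver glutaminase (Gls2) frees ammonia from glutamine next to the cycle, and glutamine synthetase in the hepatocytes around the central vein binds what escapes.

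The arrays form 3 groups: freshly isolated hepatocytes perfused for 24 h with DMSO, the solvent (5 arrays), with 10 µM flutamide (6 arrays) or with 100 µM flutamide (4 arrays). In all groups the cells first adhered for 24 h in biochips, small perfused culture chambers coated with collagen, in a medium holding serum and insulin. They were then perfused at 25 µl/min with a medium holding insulin, transferrin and selenium. No strain, sex or age of the rats is given in the labels used here. The titles number the biochips 10 to 16, called run 1 here (2 arrays with DMSO, 3 with 10 µM and 2 with 100 µM), and 20 to 27, called run 2 (3 with DMSO, 3 with 10 µM and 2 with 100 µM). The labels do not say what the runs stand for or whether biochips hold cells of separate animals, so each p-value here reflects no more than the variation among these arrays, which may be technical.

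Levels are the authors' log2 expression values, on which a difference of 1 is a doubling. The array medians lay between 5.38 and 5.51 over all probe sets. All 12 hepatocyte markers were measured, and Alb, the albumin gene, lay between 12.66 and 13.01. The array numbered 23, at 10 µM, was the odd one out: its correlation with each other array had a median of 0.962, and its limma quality weight was the lowest (0.205). It also held the highest mean level of the 12 Kupffer cell and macrophage markers, 7.35. That Kupffer level was 5.80 to 6.92 in the DMSO arrays, 5.62 to 6.17 in the other 10 µM arrays and 5.69 to 6.41 in the 100 µM arrays. Array 23 was also the highest of the 15 arrays in the mean of the hepatocyte (11.54), stellate cell and fibroblast (5.33), endothelial (5.23) and lymphocyte (4.33) markers. In the mean of the cholangiocyte markers it was the lowest (5.37). In whole cultures, fewer cells of a type and less RNA per cell cannot be told apart.

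To show the genes of the 3 mitochondrial steps, the 250 bases before the start of Nags, Cps1 and Otc are given from RefSeq (GRCr8), 5′ to 3′ on the gene's strand. Nags lies on the plus strand at chr10:87598266-87598515, Cps1 on the plus strand at chr9:76063613-76063862 and Otc on the minus strand at chrX:15202474-15202723. Capitals mark CAAAG or its reverse complement, the core of a site of HNF4, a nuclear receptor of hepatocyte identity.
Nags: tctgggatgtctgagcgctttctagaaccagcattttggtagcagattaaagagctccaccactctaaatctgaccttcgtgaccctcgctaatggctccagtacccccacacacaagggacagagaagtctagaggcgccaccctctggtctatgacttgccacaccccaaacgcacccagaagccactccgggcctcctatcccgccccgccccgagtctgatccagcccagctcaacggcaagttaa
Cps1: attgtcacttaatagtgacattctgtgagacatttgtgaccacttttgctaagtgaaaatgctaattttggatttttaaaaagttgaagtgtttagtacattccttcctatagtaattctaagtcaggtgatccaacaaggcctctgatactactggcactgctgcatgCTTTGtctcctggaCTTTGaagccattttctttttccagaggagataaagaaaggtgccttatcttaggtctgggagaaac
Otc: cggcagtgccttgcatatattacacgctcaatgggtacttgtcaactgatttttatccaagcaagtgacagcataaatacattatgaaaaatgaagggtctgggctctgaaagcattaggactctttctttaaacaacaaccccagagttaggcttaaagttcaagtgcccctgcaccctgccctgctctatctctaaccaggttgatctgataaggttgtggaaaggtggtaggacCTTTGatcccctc
Cps1 holds 2 such matches, Otc 1 and Nags 0, and 48.24% of the 33469 promoters of that length hold at least 1. The other motifs searched on both strands were TATAAA (the TATA box, in 12.93% of promoters), ATTGC (the core of a C/EBP site, 23.2%), TGACG (the core of a cyclic AMP response element, 18.22%) and AGAACA (the core of a glucocorticoid receptor site, 17.52%). None of these other motifs was found in the 3 sequences shown. No motif of the 5 contains another, and a match describes letters only.

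Over the whole table, limma called 0 of 14506 genes (0%) in 10 µM flutamide against DMSO and 0 (0%) in 100 µM flutamide against DMSO, at a Benjamini-Hochberg adjusted p under 0.05. None of the 7 measured members was therefore called at either dose. At 10 µM, 2 of 7 members (Arg1 and Nags) and 7.65% of all genes had an unadjusted p under 0.05. Both lay lower, as 3.82% of all genes did, and 0 members lay higher (3.83% of all genes). At 100 µM the count was again 2 of 7 (Arg1 and Cps1), against 6.85% of all genes. Both lay lower, as 3.42% of all genes did, and 0 members lay higher (3.43%). The median log2 change of the members was 0.00 at 10 µM and -0.20 at 100 µM, against -0.00 and 0.02 over all genes. Both comparisons share the DMSO arrays. The plot of the values by array shows each member.

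**Figure D1:**
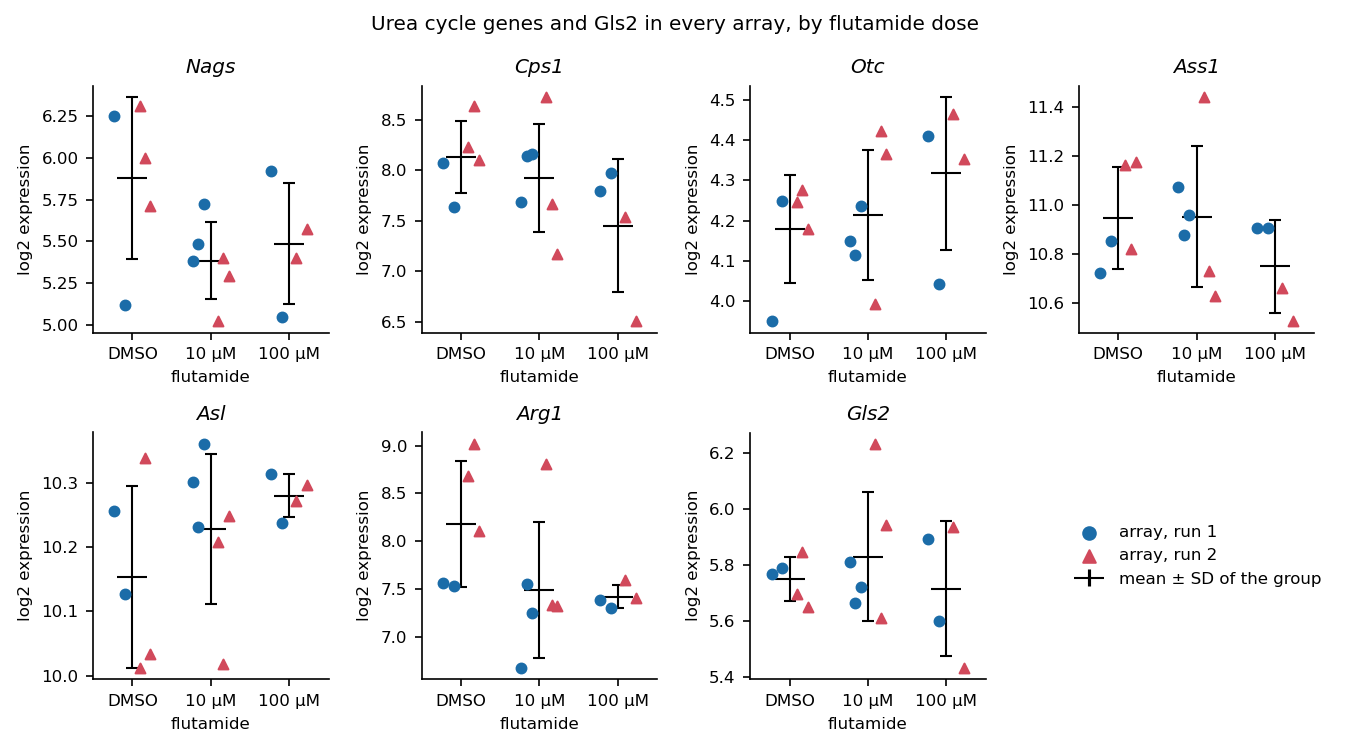
Log2 expression (y axis) of the 7 measured genes in every array by flutamide dose (x axis). Points are arrays, circles for run 1 and triangles for run 2, and bars give the mean ± SD (n = 5 DMSO, 6 at 10 µM, 4 at 100 µM). The run 2 DMSO arrays lie highest for Arg1 apart from 10 µM array 23, and the lowest Cps1 value is that of 100 µM array 27 (6.50).

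Nags, at the entry of the cycle, was at 6.25, 5.12, 6.31, 6.001 and 5.71 in the DMSO arrays 10, 11, 20, 21 and 22. The 10 µM arrays had a lowest value of 5.02, a median of 5.39 and a highest value of 5.72, and the 100 µM arrays 15, 16, 26 and 27 were at 5.92, 5.05, 5.40 and 5.57. Both treated groups overlap with DMSO, in which array 11 lies far below the other arrays. Nags averaged 5.88 ± 0.48 in DMSO (SD, n = 5), 5.39 ± 0.23 at 10 µM (n = 6) and 5.49 ± 0.36 at 100 µM (n = 4). Both treated means lie within the range of the array medians over all probe sets, 5.38 to 5.51. No background measure was used here, so whether these levels were above background is not known. The log2 change was -0.49 at 10 µM (SE 0.21, 95% interval -0.95 to -0.04, unadjusted p = 0.0344 and adjusted p = 0.61 by limma). At 100 µM it was -0.39 (SE 0.23, interval -0.89 to 0.11, adjusted p = 0.783). Without DMSO array 11 the values were -0.73 at 10 µM and -0.63 at 100 µM. Without DMSO array 10 the value at 10 µM was -0.38. Without 100 µM array 16 the value at 100 µM was -0.24.

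Cps1, the rate-limiting enzyme of the cycle, was at 8.07, 7.64, 8.23, 8.64 and 8.10 in DMSO arrays 10, 11, 20, 21 and 22. At 10 µM its lowest value was 7.17, the median 7.92 and the highest 8.73, and the 100 µM arrays 15, 16, 26 and 27 were at 7.80, 7.97, 7.54 and 6.50. Both treated groups overlap with DMSO, and array 27 lies below every other array of the series. Cps1 averaged 8.14 ± 0.36 in DMSO (SD, n = 5), 7.93 ± 0.54 at 10 µM (n = 6) and 7.45 ± 0.66 at 100 µM (n = 4). The log2 change was -0.22 at 10 µM (SE 0.29, interval -0.85 to 0.41, adjusted p = 0.927) and -0.70 at 100 µM (SE 0.32, interval -1.39 to -0.00, unadjusted p = 0.0496 and adjusted p = 0.728, limma). That is 1.62-fold lower at 100 µM. A single array carried much of that estimate, which was -0.36 without 100 µM array 27. At 10 µM the value was -0.43 without array 23 and -0.40 without DMSO array 11, but -0.06 without 10 µM array 25 and -0.08 without DMSO array 21.

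Otc, the next enzyme, stayed between 3.95 and 4.28 in DMSO, 3.99 and 4.42 at 10 µM, and 4.04 and 4.46 at 100 µM. All of these values lie below the medians of the arrays over all probe sets. No background measure was used here, so whether the Otc probe set was above background is not known. The log2 change was 0.05 at 10 µM (SE 0.09, adjusted p = 0.964) and 0.15 at 100 µM (SE 0.10, interval -0.07 to 0.37, adjusted p = 0.808). The groups overlap over most of their range.

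Ass1, which joins citrulline and aspartate, was at 10.72, 10.85, 11.16, 10.82 and 11.17 in DMSO arrays 10, 11, 20, 21 and 22. It lay between 10.63 and 11.44 at 10 µM and between 10.52 and 10.90 at 100 µM, and the groups overlap. The log2 change was 0.00 at 10 µM (SE 0.14, interval -0.30 to 0.31, adjusted p = 0.996) and -0.20 at 100 µM (SE 0.16, interval -0.54 to 0.14, adjusted p = 0.831). The value at 10 µM was -0.11 without array 23, and that at 100 µM was -0.12 without array 27.

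Asl, the lyase that follows, was the steadiest member. Its DMSO arrays lay between 10.01 and 10.34, the 10 µM arrays between 10.02 and 10.36 and the 100 µM arrays between 10.24 and 10.31. The log2 change was 0.07 at 10 µM (SE 0.08, interval -0.10 to 0.23, adjusted p = 0.907). At 100 µM it was 0.12 (SE 0.08, interval -0.06 to 0.30, adjusted p = 0.814), and that interval reaches at most 1.23-fold higher or 1.04-fold lower.

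Arg1, the arginase that releases urea, was at 7.57, 7.54, 8.68, 9.02 and 8.11 in DMSO arrays 10, 11, 20, 21 and 22. At 10 µM its lowest value was 6.68, the median 7.32 and the highest 8.81, and the 100 µM arrays 15, 16, 26 and 27 were at 7.38, 7.30, 7.59 and 7.40. The 3 run 2 DMSO arrays and 10 µM array 23 lie above all other arrays, and the rest lie between 6.68 and 7.59. Arg1 averaged 8.18 ± 0.66 in DMSO (SD, n = 5), 7.49 ± 0.71 at 10 µM (n = 6) and 7.42 ± 0.12 at 100 µM (n = 4). The log2 change was -0.63 at 10 µM (SE 0.27, interval -1.22 to -0.04, unadjusted p = 0.0376 and adjusted p = 0.623, limma). At 100 µM it was -0.70 (SE 0.30, interval -1.35 to -0.05, unadjusted p = 0.0375 and adjusted p = 0.723, limma), or 1.62-fold lower. Without 10 µM array 23 the value at 10 µM was -0.86. Without DMSO array 21, the highest array for Arg1, it was -0.48 at 10 µM and -0.55 at 100 µM. The value at 100 µM was -0.80 without 100 µM array 15. Array 23 was the highest in hepatocyte, Kupffer cell, stellate cell, endothelial and lymphocyte markers, and the lowest in cholangiocyte markers. The mean of the 6 endothelial markers was 5.06, 5.08 and 5.08 in the run 2 DMSO arrays 20, 21 and 22 and 5.23 in array 23. In the other arrays it lay between 4.54 and 4.92, so the same 4 arrays were highest as for Arg1. All of these means lie below the array medians over all probe sets, 5.38 to 5.51. These markers include Kdr, the gene of highest r with Arg1 (0.94). The match is therefore not independent of Arg1, and no mean was taken without Kdr. The part of endothelial and other cell types in the Arg1 values was not tested.

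Gls2, the liver glutaminase, lay between 5.65 and 5.85 in DMSO, 5.61 and 6.23 at 10 µM, and 5.43 and 5.93 at 100 µM. Its log2 change was 0.08 at 10 µM (SE 0.12, interval -0.17 to 0.34, adjusted p = 0.932) and -0.03 at 100 µM (SE 0.13, interval -0.31 to 0.25, adjusted p = 0.974). The highest value, 6.23, was that of 10 µM array 23, and without it the value at 10 µM was -0.00.

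**Figure D2:**
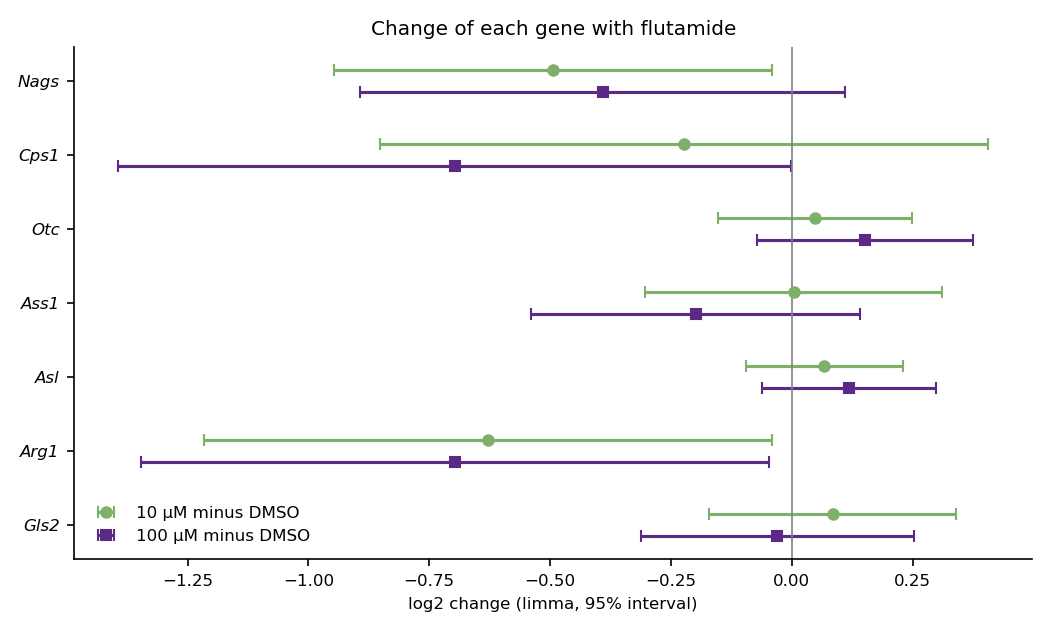
Log2 change (x axis) of each measured gene (y axis) in 10 µM flutamide against DMSO (circles) and 100 µM flutamide against DMSO (squares), with limma's 95% intervals on 15 arrays. Arg1 lies below 0 at both doses, Nags at 10 µM and Cps1 narrowly at 100 µM; all other intervals include 0, and no adjusted p is under 0.05.

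The 2 doses were also set against each other, which uses no DMSO array. In 100 µM against 10 µM flutamide limma called 0 of 14506 genes (0%) and 0 members, and 0 of 7 members had an unadjusted p under 0.05, against 4.98% of all genes (2.34% lower and 2.65% higher). Cps1 had the most negative value, -0.48 (SE 0.31, interval -1.14 to 0.19, adjusted p = 0.93). It was -0.15 without 100 µM array 27, -0.29 without 10 µM array 23 and -0.64 without 100 µM array 16. Arg1 was at -0.07 (interval -0.69 to 0.56) and Nags at 0.10 (interval -0.38 to 0.58). A single slope over DMSO, 10 µM and 100 µM, in log2 per dose step, gave 0 called genes (0%) and 0 called members. Arg1 was at -0.36 per step (SE 0.15, unadjusted p = 0.033 and adjusted p = 0.697, limma), and Cps1 at -0.34 (SE 0.16, unadjusted p = 0.0462 and adjusted p = 0.707, limma), which was -0.18 without 100 µM array 27. These 2 of 7 members had an unadjusted p under 0.05, against 6.87% of all genes, and both were on the lower side, which held 3.47% of all genes (the higher side held 3.4% and 0 members).

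Split by run, the lower means at 100 µM lay mainly in run 2. Within run 2, Cps1 was 1.30 lower on the log2 scale at 100 µM than in DMSO (7.02 at 100 µM and 8.32 in DMSO). Within run 1 its means were 7.89 at 100 µM and 7.85 in DMSO, a difference of 0.03. For Arg1 the difference between 100 µM and DMSO was -1.10 within run 2 (7.50 at 100 µM and 8.60 in DMSO) and -0.21 within run 1 (7.34 at 100 µM and 7.55 in DMSO). For Nags it was -0.52 within run 2 and -0.20 within run 1, and for Ass1 -0.46 within run 2 and 0.12 within run 1. In run 2 both 100 µM arrays lay below all 3 DMSO arrays for Cps1, Ass1, Arg1 and Nags, 4 of 7 members, where 14.4% of all genes did. In run 1 this held for Arg1 alone (1 of 7, against 12.1% of all genes), and Ass1 lay above both DMSO arrays (1 of 7, against 18.5%). Otc lay above all DMSO arrays in run 2 (1 of 7, against 14.8%). Over both runs together no member separated 100 µM from DMSO, as 0.931% of genes did on the lower side and 1.13% on the higher side.

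At 10 µM within run 2, Nags was the only member that separated from DMSO. Nags lay below all DMSO arrays in all 3 10 µM arrays (1 of 7 members, against 8.53% of genes, and 0 members above them, against 7.79%), with a difference of -0.77 within run 2 and -0.15 within run 1. In run 1, Ass1 lay above both DMSO arrays in all 3 of the 10 µM arrays (1 of 7, against 13.3% of genes), and 0 members lay below them (12.2%). Over both runs 0 members separated 10 µM from DMSO, as 0.221% of genes did on the lower side and 0.414% on the higher side. Arg1 was at 8.81, 7.33 and 7.32 in the run 2 arrays 23, 24 and 25 at 10 µM. The differences between 10 µM and DMSO were -0.78 within run 2 and -0.39 within run 1 for Arg1, -0.47 within run 2 and 0.15 within run 1 for Cps1, and -0.12 within run 2 and 0.18 within run 1 for Ass1.

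**Figure D3:**
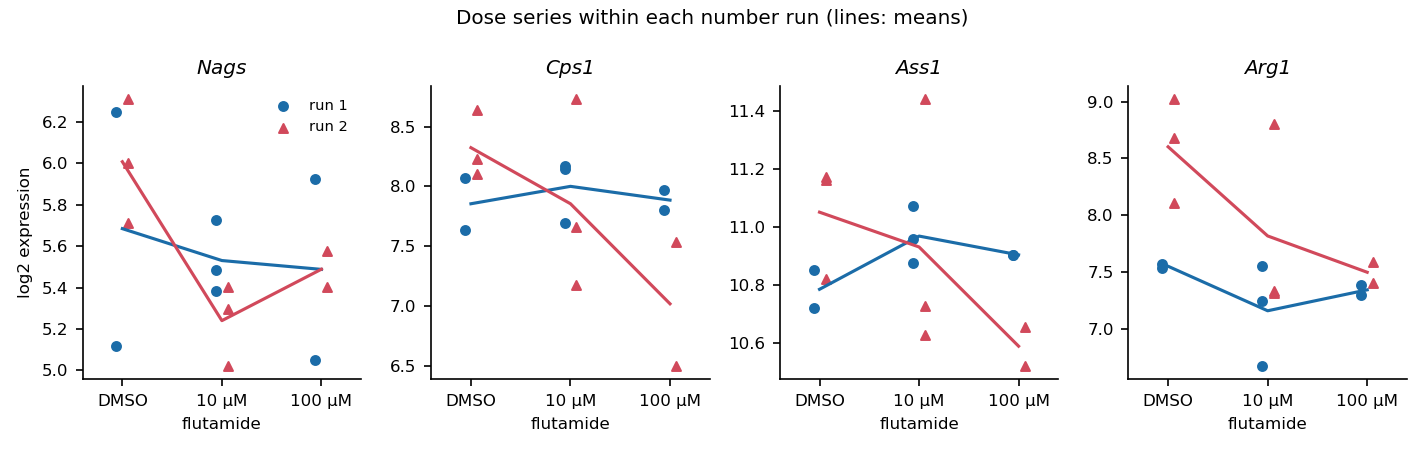
Log2 expression (y axis) of Nags, Cps1, Ass1 and Arg1 by flutamide dose (x axis) within run 1 (circles) and run 2 (triangles); points are arrays and lines join the means. For Cps1 the run 2 means are 8.32, 7.86 and 7.02 in DMSO, 10 µM and 100 µM, and the run 1 means are 7.85, 8.00 and 7.89.

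Whether the response differed between the runs was tested as an interaction. For the response to 100 µM limma called 1 of 14506 genes (0.00689%) and 0 members. Cps1 had the most negative member value, a run 2 minus run 1 difference in response of -1.33 (SE 0.59, interval -2.62 to -0.05, unadjusted p = 0.0432 and adjusted p = 0.809, limma), and 1 of 7 members had an unadjusted p under 0.05 on the lower side, against 3.87% of all genes (6.08% in both directions, 2.21% on the higher side). For Cps1, leaving out array 27 at 100 µM gave -0.82, and leaving out array 26 gave -1.85. Arg1 was at -0.90 (SE 0.60, adjusted p = 0.902) and Ass1 at -0.58 (SE 0.30, adjusted p = 0.864). For the response to 10 µM limma called 6 genes (0.0414%) and 0 members. No member had an unadjusted p under 0.05, which 10.2% of all genes had (6.68% lower and 3.56% higher). Nags (-0.61, SE 0.42) and Cps1 (-0.61, SE 0.53) had adjusted p = 0.628 and 0.702. The Nags value was -0.05 without DMSO array 11 and -1.18 without DMSO array 10, and the Cps1 value was -0.27 without 10 µM array 25, -0.40 without DMSO array 11 and -1.05 without array 23. A difference in response between the runs was therefore not shown for any member.

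Levels were also compared between the runs. In DMSO, Arg1 averaged 8.60 in run 2 and 7.55 in run 1, and Cps1 8.32 and 7.85. These 2 of 7 members lay higher in all run 2 DMSO arrays than in both run 1 DMSO arrays, where 15.6% of all genes did. At 100 µM the means of Cps1 were 7.02 in run 2 and 7.89 in run 1, the other way round, and Cps1 and Ass1 lay lower in both run 2 arrays there (2 of 7, against 18% of genes) and Arg1 higher (1 of 7, against 14.2%). At 10 µM no member separated the runs, as 8.29% of genes did on the lower and 8.27% on the higher side. With the dose groups taken into account, limma called 79 genes (0.545%) between run 2 and run 1, and 0 members. Arg1 had the most positive member value, 0.65 (SE 0.23, interval 0.15 to 1.15, unadjusted p = 0.0148 and adjusted p = 0.301, limma), the 1 of 7 members with an unadjusted p under 0.05, against 11% of all genes and 4.73% on the higher side. The other 6 members lay between -0.14 and 0.13.

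The spread left between arrays differed among the members, and a difference in response between the runs counts in it. After dose group and run were removed, the residual SD was 0.54 for Cps1, 0.50 for Arg1 and 0.38 for Nags, at or above that of 97.0%, 95.9% and 88.8% of all genes, whose median was 0.19. Asl had a residual SD of 0.11, at or above that of 12.9% of genes. Ass1, Gls2 and Otc lay between these, at 0.25, 0.20 and 0.15.

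Members were correlated with each other over the 15 arrays in 21 pairs, and 0 pairs passed a permutation test after Benjamini-Hochberg adjustment. Arrays were permuted freely across dose groups and runs, so each p also reflects shifts that 2 members share by dose or run. Cps1 and Ass1 had the lowest p (Pearson r = 0.71, permutation p = 0.00347, adjusted p = 0.0729; Spearman rho = 0.70, permutation p = 0.00483, adjusted p = 0.101). Without arrays 25 and 27, the 2 farthest from the median of Cps1, r was 0.56, and it was 0.80 within run 2 (8 arrays), -0.32 within run 1 (7 arrays) and 0.63 without array 23. Cps1 and Arg1 had r = 0.62 (permutation p = 0.0129, adjusted p = 0.136) and rho = 0.50 (permutation p = 0.0613, adjusted p = 0.322). Their r was 0.78 without arrays 25 and 27, 0.88 within run 2, 0.37 within run 1 and 0.53 without array 23.

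Among all genes, those whose log2 values followed a member most closely over the 15 arrays are given as a description only, since the arrays share dose, run and normalization. For Cps1 these were Rbp4, which encodes the retinol carrier of plasma (r = 0.89), and Pex13, a peroxisome biogenesis factor (r = 0.88). For Arg1 they were Kdr, a vascular endothelial growth factor receptor and one of the endothelial markers (r = 0.94), and Sult2a2, a hydroxysteroid sulfotransferase (r = 0.92). For Ass1 they were Gstm3, a glutathione S-transferase (r = 0.92), and Nampt, an enzyme of NAD synthesis (r = 0.86). For Nags they were Ppp1ca, a protein phosphatase subunit (r = 0.80), and Mta2 (r = 0.79), and for Gls2 Rbm14 (r = 0.85, and 0.71 without array 23) and Vom1r105 (r = 0.84, and 0.68 without array 23). For Otc they were Prl7a4 (r = 0.83) and Brca1 (r = 0.78), and for Asl Mageb3 (r = 0.84) and Atad2b (r = 0.81). Spearman rho lay between 0.52 and 0.92 for these pairs of all members. It was lowest for Asl with Atad2b (0.52) and with Mageb3 (0.62). Without array 23, r was 0.76 for Ass1 with Nampt, and it lay between 0.74 and 0.92 for the pairs of the members other than Gls2. After group and run were removed, the closest were Serpinf2 for Cps1 (r = 0.93), Tgoln2 for Arg1 (r = 0.91), Ccl9 for Ass1 (r = 0.94), Pdcl for Nags (r = 0.87), Rbm14 for Gls2 (r = 0.89), Top3b for Otc (r = 0.88) and Hps3 for Asl (r = 0.86). Without array 23 these lay between 0.82 and 0.91.

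Of the genes around the cycle, the carriers and transporters were measured for 24 of 26 entries, and none was called at either dose. At 10 µM 17 lay lower and 7 higher, with a median of -0.06, and 4 lay lower and 1 higher at an unadjusted p under 0.05, against 3.82% and 3.83% of all genes. At 100 µM 16 lay lower and 8 higher, with a median of -0.05, and 3 lay lower at an unadjusted p under 0.05 and 1 higher, against 3.42% and 3.43% of all genes. Aqp8, a channel that in rat hepatocytes also sits in mitochondria and passes ammonia, had the lowest p of the list. It was at 7.04, 6.49, 7.75, 7.48 and 7.21 in DMSO arrays 10, 11, 20, 21 and 22, between 5.89 and 7.01 at 10 µM, and at 5.95, 6.23, 5.72 and 5.46 in 100 µM arrays 15, 16, 26 and 27. All 4 of the 100 µM arrays lay below all DMSO arrays, which 0.931% of all genes did. Aqp8 was named for its low p in the dose slope over the same arrays, so this separation is not independent of that choice. Its log2 change was -0.89 at 10 µM (SE 0.23, unadjusted p = 0.00156 and adjusted p = 0.35) and -1.33 at 100 µM (SE 0.25, unadjusted p = 0.000107 and adjusted p = 0.356), by limma. The run 2 minus run 1 difference in its response to 100 µM was -1.21 (SE 0.42, unadjusted p = 0.0133 and adjusted p = 0.77, limma).

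Rhbg, an ammonium transporter of hepatocytes around the central vein, had a log2 change of -0.46 at 10 µM (SE 0.12, adjusted p = 0.35) and -0.49 at 100 µM (SE 0.14, adjusted p = 0.628). It lay between 5.54 and 6.08 at 100 µM and between 6.18 and 6.45 in DMSO. These groups do not overlap, a separation on the lower side that 0.931% of all genes showed. Rhbg too was named for its low p in the dose slope, which uses the same values. Slc25a15, the ornithine carrier of the inner mitochondrial membrane that feeds Otc, was chosen after its values were seen. It had a log2 change of -0.46 at 10 µM (SE 0.21, adjusted p = 0.64) and -0.56 at 100 µM (SE 0.23, adjusted p = 0.708). Slc25a2, a second ornithine carrier, lay on the other side, at 0.28 (SE 0.09, adjusted p = 0.447) and 0.39 (SE 0.10, adjusted p = 0.51). Its 100 µM arrays lay between 5.33 and 5.54 and its DMSO arrays between 4.88 and 5.19, a separation on the higher side that 1.13% of all genes showed. Slc25a2 was likewise named by the dose slope, so its separation follows in part from that choice. These DMSO values lie below the array medians over all probe sets, 5.38 to 5.51, and whether they were above background is not known. Slc1a4, a neutral amino acid transporter, and Slc25a22, a mitochondrial glutamate carrier, were at -0.08 and -0.04 at 100 µM, and Slc1a4 was at 0.47 between run 2 and run 1 (SE 0.11, adjusted p = 0.0807).

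Enzymes that feed nitrogen to the cycle or share its substrates were measured for 26 of 30 entries. At 10 µM 16 lay lower and 10 higher, with a median of -0.10, and 2 lay lower and 0 higher at an unadjusted p under 0.05, against 3.82% and 3.83% of all genes. At 100 µM 19 lay lower and 7 higher, with a median of -0.10, and 3 had an unadjusted p under 0.05, all lower, against 3.42% of all genes. None was called at either dose. Gpt, the cytosolic alanine aminotransferase, was at -0.29 at 10 µM (SE 0.12, adjusted p = 0.559) and -0.36 at 100 µM (SE 0.13, adjusted p = 0.663). Gpt was the only gene of these lists called between the runs: it was lower in run 2 than in run 1 by a log2 change of -0.60 (SE 0.10, adjusted p = 0.0165, limma), lying between 5.02 and 5.75 in the run 2 arrays and between 5.75 and 6.42 in the run 1 arrays. The lowest run 2 values lie below the array medians over all probe sets, 5.38 to 5.51, and whether they were above background is not known.

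The short list of bicarbonate supply and protein modifiers had 7 of 7 entries measured and 0 with an unadjusted p under 0.05 at either dose. Car5a, the mitochondrial carbonic anhydrase that supplies Cps1 with bicarbonate, was at -0.22 at 10 µM (SE 0.11, adjusted p = 0.661) and -0.21 at 100 µM (SE 0.12, adjusted p = 0.777). Its values ran from 5.13 to 5.95. The lowest lie below the array medians over all probe sets, 5.38 to 5.51, and whether they were above background is not known. Sirt5, a deacylase that acts on Cps1, was at -0.23 and -0.25 (SE 0.24 and 0.27), and Lonp1, a mitochondrial protease, at -0.11 and -0.01.

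Regulators of these genes were measured for 16 of 17 entries, with a median of -0.17 at 100 µM, 11 lower and 5 higher, against 44.3% of all genes lower. At an unadjusted p under 0.05, 3 lay lower and 0 higher, against 3.42% and 3.43% of all genes, and none was called. At 10 µM 11 lay lower, with a median of -0.11, 3 lower and 1 higher at that p, against 3.82% and 3.83% of all genes. Ppargc1a, a coactivator of the fasting response, was at -0.26 at 10 µM (SE 0.26, adjusted p = 0.879) and -0.88 at 100 µM (SE 0.29, unadjusted p = 0.00827 and adjusted p = 0.649, limma). Ncoa1, a nuclear receptor coactivator, was at -0.16 and -0.41 (SE 0.14 and 0.16). Klf15, a fasting-induced factor of amino acid breakdown, was at -0.07 and -0.13, and Creb1, the cyclic AMP response factor, at -0.12 and 0.20. Hnf4a, chosen after its values were seen because the core of its site is marked in the sequences, was at -0.62 at 10 µM (SE 0.20, adjusted p = 0.439) and -0.39 at 100 µM (SE 0.22, adjusted p = 0.777).

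Since the cycle belongs to periportal cells and Glul to pericentral ones, other genes of both zones were counted. At 10 µM, 1 of 13 other periportal genes lay higher at an unadjusted p under 0.05 and 0 lower, with a median of -0.04. Of 16 pericentral genes 2 lay lower and 2 higher at that p, against 3.82% and 3.83% of all genes, with 10 of 16 higher and a median of 0.04. Of 13 other periportal genes measured, 9 lay lower and 4 higher at 100 µM, with a median of -0.15, 2 with an unadjusted p under 0.05, both lower (3.42% of all genes were): Hal, the histidine ammonia-lyase (-0.25, SE 0.11, adjusted p = 0.708), and Hsd17b13, a lipid droplet protein (-0.72, SE 0.31, adjusted p = 0.715). Pigr and Fbp1 were at -0.15 and -0.07. Of 16 pericentral genes, 8 lay lower and 8 higher, with a median of 0.01, and 5 had an unadjusted p under 0.05, all lower, against 3.42% of all genes. Among them were Rhbg, Gulo, an enzyme of vitamin C synthesis (-0.60, SE 0.17, adjusted p = 0.628), and Cyp2e1, a cytochrome P450 (-0.83, SE 0.36, adjusted p = 0.715). Cyp1a2, another cytochrome P450 of this zone, was at 0.13. No gene of either zone was called, and a difference between the zones was not tested.

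**Figure D4:**
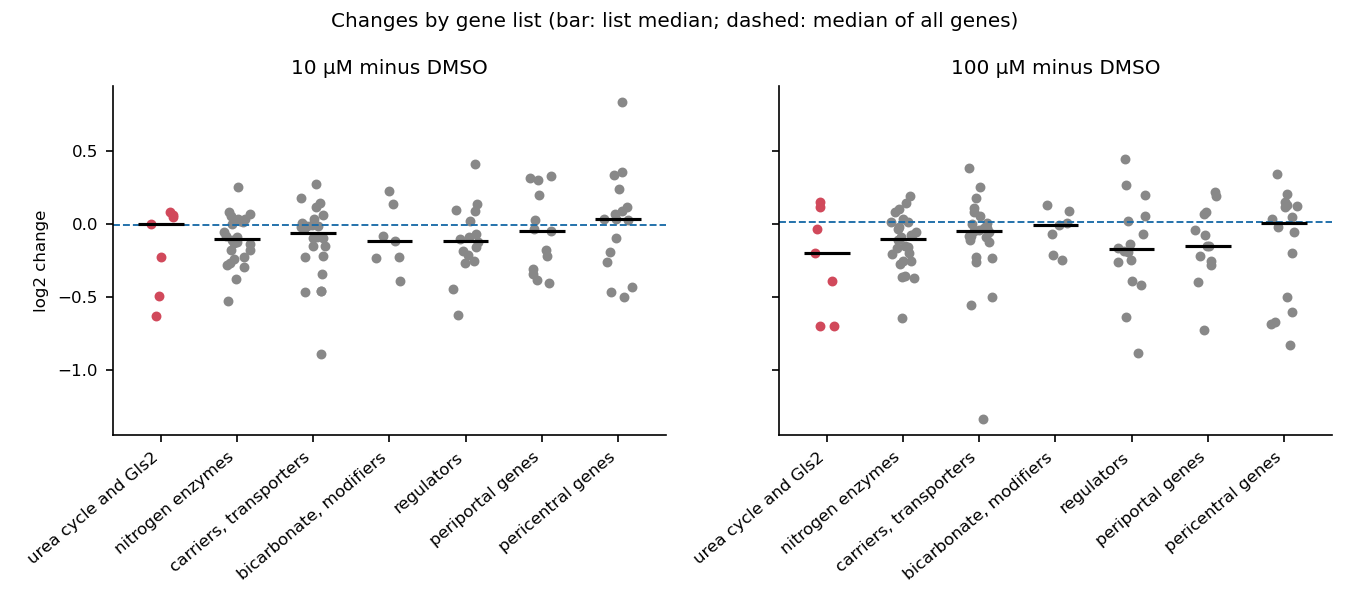
Log2 change (y axis) of single genes by list (x axis) in 10 µM flutamide against DMSO (left) and 100 µM flutamide against DMSO (right). Points are genes, black bars list medians and the dashed line the median of all 14506 genes; the lowest point is Aqp8 (-1.33 at 100 µM), and no gene shown was called.

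Of the 12 hepatocyte markers, 4 lay lower and 8 higher at 10 µM, with a median of 0.11, 2 lower and 4 higher at an unadjusted p under 0.05 (3.82% and 3.83% of all genes). At 100 µM 6 lay lower and 6 higher, with a median of 0.03, 2 lower and 0 higher at that p (3.42% and 3.43%), and none was called at either dose. Apob, the main protein of very low density lipoprotein, was at -0.56 at 10 µM (SE 0.19, adjusted p = 0.473) and -0.66 at 100 µM (SE 0.21, adjusted p = 0.649), and the plasma protein genes Ahsg and Fgb were at 0.15 and -0.08 at 100 µM. Markers of other cell types were read beside these values. The mean level of the 12 Kupffer cell and macrophage markers lay between 5.69 and 6.41 at 100 µM and between 5.80 and 6.92 in DMSO. The log2 of their summed linear level lay between 9.64 and 11.01 in DMSO, 10.23 and 11.55 at 10 µM, and 9.87 and 11.15 at 100 µM. Their median log2 change was -0.32 at 100 µM, with 11 of 12 lower, against 44.3% of all genes, and none called. At an unadjusted p under 0.05 by limma, 1 lay lower and 1 higher, against 3.42% and 3.43% of all genes. The mean level of these Kupffer cell and macrophage markers was 5.81 and 5.69 in the run 2 arrays 26 and 27 at 100 µM. In the run 2 DMSO arrays 20, 21 and 22 that mean level was 6.27, 6.92 and 5.80. The 6 endothelial markers measured had a median of -0.12 at 100 µM and of 0.23 between run 2 and run 1. All 6 were higher in run 2, where 49.2% of all genes lay lower. The median of the 10 stellate cell and fibroblast markers was 0.03 at 100 µM, that of the 5 cholangiocyte markers 0.02 and that of the 6 lymphocyte markers 0.04. The part of these cells in the values of Arg1 and Cps1 was not tested.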

How the data were processed

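Gene arrays were used on RNA of 15 biochips, and for each array the authors deposited log2 values per probe set. Per the submitters' processing notes, RMA and Partek were used. As a method, RMA corrects background, normalizes arrays by quantiles and summarises the probes of a set. Versions and settings of both are unknown here. No further normalization was applied to them. Normalizing arrays to a common distribution can hide a shift shared by most genes.

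Of 29214 probe sets, 15310 had 1 gene symbol in the platform annotation, and 15279 of these were matched by gene identifier to RefSeq (GRCr8) for names. The 13904 others were left out. The probe set of highest mean stood for each of 527 genes with several, which left 14506 genes. The number of columns from other samples was 0.

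Groups were compared with limma 3.58.1 in R 4.3.3 (lmFit and eBayes) on all 15 arrays with run as a block and 11 residual degrees of freedom. The slope over doses coded 0, 1 and 2 had 12 and the interactions 9. P-values were adjusted over all 14506 genes by Benjamini-Hochberg, with a threshold of 0.05. Each correlation was tested with 100000 permutations of the arrays. The fits were tested on simulated data. Alternatives were fits without the run block, on 2 groups, after renewed quantile normalization, without dim genes, with mean probe sets, with array weights, within each run and without single arrays.

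Named list genes are up to 4 called genes of a list, or otherwise the 2 of lowest p for the dose slope and the 2 of lowest p between runs. Named besides are the 2 genes most like each member. The members and lists were chosen with earlier results of these data known.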

Additional observations from a re-analysis of the deposited data

How the results depend on the processing

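No paired analysis was possible because the groups share no replicate numbers. No member was called under any setting. Of 735 member log2 changes with 1 array left out, 692 kept their sign and 43 turned it, and of 350 under the other settings 321 kept it and 29 turned it. All values that turned were uncalled; the cause was not tested. Genes called in 10 µM against DMSO numbered 1 after renewed quantile normalization, 1 with array quality weights and 7 within run 2, and in 100 µM against DMSO 1 within run 2. Genes called between runs numbered 191 with weights. For the run difference in response to 10 µM the counts were 3 (quantile), 2 (dim genes left out), 34 (weights) and 3 (without the 3 arrays of lowest weight, 15, 23 and 24), and for that to 100 µM 2 (weights) and 5 (without those 3). Leaving out single arrays gave 0 to 1 genes in 10 µM against DMSO, 37 (without DMSO array 11) to 129 (without 10 µM array 23) between runs, 2 to 116 (without 10 µM array 25) for the response to 10 µM and 0 to 22 (without 100 µM array 16) for that to 100 µM. The values that turned were, between runs, Nags 0.028 without the run block, 0.080 with weights and 0.19 without the 3 arrays. After quantile normalization they were Ass1 at 10 µM against DMSO -0.011, Asl response to 10 µM 0.0054 and Otc response to 100 µM -0.0066. With weights they were Ass1 at 10 µM -0.11, 100 against 10 µM for Arg1 0.0090 and Nags -0.090, and Otc response to 10 µM 0.037. Within run 1 they were Cps1 0.15 and Gls2 -0.047 at 10 µM, Cps1 0.030 and Ass1 0.12 at 100 µM, 100 against 10 µM for Asl -0.022, Arg1 0.18, Nags -0.043 and Gls2 0.015, and the dose slope of Cps1 0.015 and Ass1 0.059. Within run 2, Ass1 at 10 µM was -0.12. Without the 3 arrays, Ass1 at 10 µM was -0.081, 100 against 10 µM was -0.019 for Otc, -0.0037 for Asl and -0.21 for Nags, the response to 10 µM 0.064 for Otc and 0.015 for Asl, and that to 100 µM 0.11 for Nags and 0.13 for Gls2. With single arrays left out, Ass1 ranged from -0.11 to 0.078 and Gls2 from -0.0041 to 0.14 at 10 µM, Gls2 from -0.11 to 0.088 at 100 µM and from -0.037 to 0.049 per dose step, Arg1 from -0.18 to 0.15 and Nags from -0.055 to 0.27 in 100 against 10 µM. Between runs the ranges were Nags -0.19 to 0.073, Ass1 -0.10 to 0.042, Gls2 -0.019 to 0.11 and Cps1 -0.29 to 0.033. For the response to 10 µM they were Otc -0.19 to 0.11 and Asl -0.14 to 0.030, and for that to 100 µM Otc -0.14 to 0.23, Nags -0.89 to 0.24 and Gls2 -0.27 to 0.24. Leaving out dim genes left 4 members, without Otc, Nags and Gls2, and turned none. A single run gave no value for the run or response comparisons, 2 groups alone none for the run or slope, and no run block none for the responses. The 15 arrays limit the precision.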
